A study of Mus musculus with 4 samples.

Results

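The FoxO, NRF2 and antioxidant genes are 10 mouse genes taken from a list, out of 21887 protein-coding genes. This list and the other gene lists below were chosen with earlier results of these data known. Their shares beside those of all genes are therefore descriptions. There were 5 regulators, Foxo1, Foxo3, Foxo4, Nfe2l2 and Keap1, and 5 antioxidant genes, Sod1, Sod2, Cat, Hmox1 and Txn1. Open chromatin was read at them from ATAC-seq, in which the Tn5 transposase inserts adapters where DNA is accessible. The cells were haematopoietic stem cells (HSCs) of marrow from male C57BL/6 mice, wild type and 8 weeks old. They were sorted as lineage-depleted LSK cells lacking CD34, CD48 and Flt3 and carrying Slam1, and were split by surface CD93 into CD93-positive HSCs (2 libraries) and CD93-negative HSCs (2 libraries). The labels name no treatment, marrow of femora and tibiae was pooled, and the labels do not state whether replicate libraries are from different mice, so p-values measure only the spread between libraries, which may be technical.

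FoxO proteins are forkhead transcription factors that growth factor signalling through AKT keeps out of the nucleus. When free, they switch on genes for cell-cycle arrest and for the removal of reactive oxygen species, and in mice they are needed to keep HSCs quiescent. NRF2, encoded by Nfe2l2, is a basic leucine zipper factor that binds antioxidant response elements with small MAF partners. KEAP1 holds it in the cytoplasm for degradation until oxidants or electrophiles modify KEAP1. The enzymes downstream clear superoxide (Sod1, Sod2), hydrogen peroxide (Cat) and heme (Hmox1), or reduce oxidised protein thiols (Txn1).

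Each library was deposited as a list of peak summits, that is, of the single positions where the signal of a peak was highest, with a score given by the authors. Positions are on mm10 and counted from 1. List lengths were 21 and 711 summits in CD93-positive replicates 1 and 2, against 7989 and 2755 in the CD93-negative replicates. Read depth is unknown, and a gene without a listed summit may be closed or may lie below the detection limit of a short list. The score, a −log10 of p or q, is set against a library's own background, so it was used to rank summits within a list and not to compare lists. Of 16 HSC and stem cell regulator genes, 5 had a summit within their body or 10 kb of it in CD93-negative replicate 1, including Erg, Runx1, Tal1 and Lyl1, and none had one in any other library. That is 31.2% of these genes, below the 43.5% of all protein-coding genes with such a summit in that library. The genes of the sorted surface proteins Kit, Ly6a (Sca-1), Slamf1 and Cd93 were without a summit in every library, as were 12 marker genes of other marrow cells. The HSC label could therefore not be checked from the summits at these genes.

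No summit lay at any of the 10 genes in either CD93-positive library, while at least 5 of the genes carried one in each CD93-negative library. The number with a summit in the gene body or within 10 kb of it was 0 and 0 in CD93-positive replicates 1 and 2, against 9 and 5 in the CD93-negative replicates. On average this was 0 ± 0 and 7 ± 2.83 genes (SD, n = 2 each), a difference of -7 genes. It did not pass by exact permutation of the libraries (p = 0.333, two-sided), and no smaller p is possible with 2 against 2. Over all protein-coding genes, the share with such a summit was 0.0411% and 4.62% in the CD93-positive replicates, against 43.5% and 18.5% in the CD93-negative replicates. A count of 0 of 10 is therefore near the background of both CD93-positive lists. Cut to the 711 highest-scoring summits, CD93-negative replicates 1 and 2 had 1 gene each, Sod2 in the first and Nfe2l2 in the second, against 4.79% and 5.05% of all genes. With the CD93-negative lists at the length of CD93-positive replicate 2, a difference between CD93-positive and CD93-negative HSCs at these genes was not detectable. CD93-positive replicate 1, with 21 summits, could not be matched in this way.

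**Figure D1:**
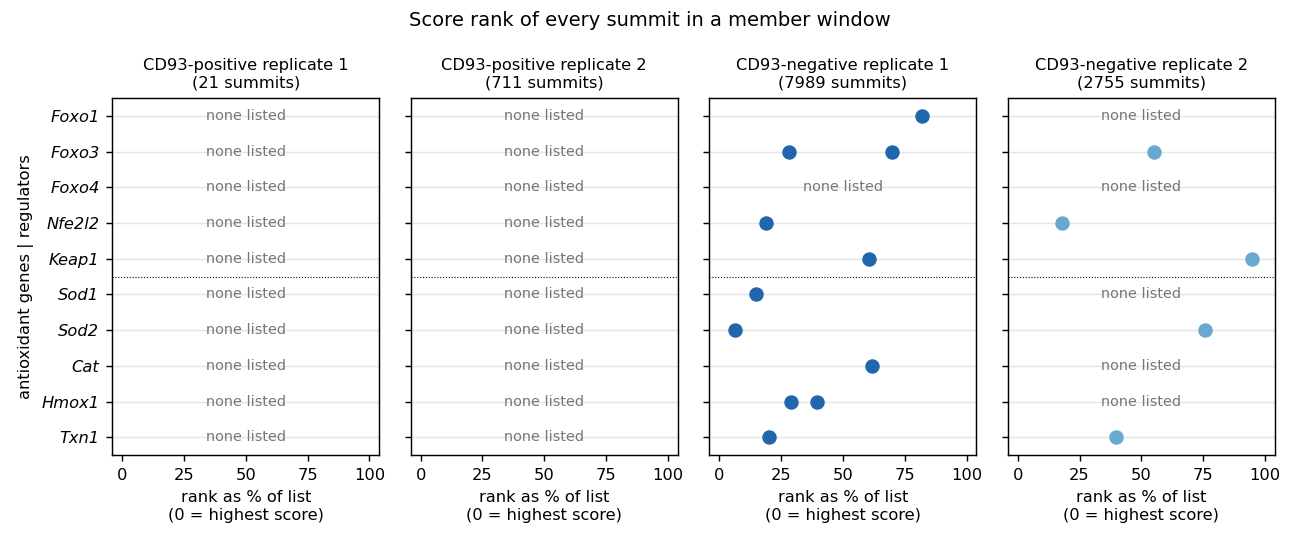
Rank of every summit within 10 kb of a member gene, as a percentage of its list (horizontal axis, 0 is the highest score), for the 10 genes (vertical axis, regulators above the dotted line) in the 4 libraries. Both CD93-positive panels are empty, CD93-negative replicate 1 holds 11 summits at 9 genes and CD93-negative replicate 2 holds 5 summits at 5 genes.

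Apart from those of Hmox1 and a site upstream of Foxo3, the listed sites lay at the starts of the genes. Starts could be told from 3′ ends for the 8 members in the RefSeq promoter table (all but Foxo4 and Hmox1), which gives the strand and the 300 bases from 250 before to 50 after each start. In the lists of CD93-positive replicates 1 and 2, 0 of these 8 promoters held a summit (0.00942% and 2.15% of all 21238 promoters did). In CD93-negative replicate 1, 7 of the 8 did (23.9% of all promoters), and in CD93-negative replicate 2, 2 of the 8 did (8.73%), Sod2 and Txn1. Neither list had a summit deeper in the body of any of the 8 than 258 bp from its start.

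Of these promoters 5 are printed from RefSeq (GRCm38.p6, the assembly behind mm10), 5′ to 3′, with the start at base 251. Nfe2l2 and Sod1 are shown because they hold an antioxidant response element core, Sod2 and Txn1 because both CD93-negative lists placed a summit within them, and Foxo3 as the most GC-rich of the 8. Capitals mark every match, on either strand, to TGACNNNGC (antioxidant response element core), CCAAT and GGGCGG (GC box). The AP-1 element TGACTCA and the FoxO element TGTTTAC were searched too and had no match in any of the 8.

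Nfe2l2 (chr2:75704614-75704913, minus strand): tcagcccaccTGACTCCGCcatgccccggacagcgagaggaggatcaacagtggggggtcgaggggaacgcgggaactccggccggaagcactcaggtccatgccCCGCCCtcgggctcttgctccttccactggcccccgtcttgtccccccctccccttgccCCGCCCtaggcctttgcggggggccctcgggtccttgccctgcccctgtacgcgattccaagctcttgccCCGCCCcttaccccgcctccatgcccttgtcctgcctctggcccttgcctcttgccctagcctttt
Foxo3 (chr10:42276646-42276945, minus strand): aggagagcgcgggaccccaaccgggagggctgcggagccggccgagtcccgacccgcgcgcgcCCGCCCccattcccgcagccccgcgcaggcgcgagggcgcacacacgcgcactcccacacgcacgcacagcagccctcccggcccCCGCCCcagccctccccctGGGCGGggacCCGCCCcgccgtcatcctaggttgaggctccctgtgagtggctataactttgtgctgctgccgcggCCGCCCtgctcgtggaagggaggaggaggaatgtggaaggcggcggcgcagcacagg
Sod1 (chr16:90220512-90220811, plus strand): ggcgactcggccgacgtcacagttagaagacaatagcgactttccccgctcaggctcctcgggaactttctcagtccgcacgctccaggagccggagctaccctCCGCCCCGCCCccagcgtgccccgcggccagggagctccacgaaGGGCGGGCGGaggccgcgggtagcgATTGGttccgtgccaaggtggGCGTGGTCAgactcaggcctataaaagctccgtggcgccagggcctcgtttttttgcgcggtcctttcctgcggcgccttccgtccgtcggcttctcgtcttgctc
Sod2 (chr17:13007589-13007888, plus strand): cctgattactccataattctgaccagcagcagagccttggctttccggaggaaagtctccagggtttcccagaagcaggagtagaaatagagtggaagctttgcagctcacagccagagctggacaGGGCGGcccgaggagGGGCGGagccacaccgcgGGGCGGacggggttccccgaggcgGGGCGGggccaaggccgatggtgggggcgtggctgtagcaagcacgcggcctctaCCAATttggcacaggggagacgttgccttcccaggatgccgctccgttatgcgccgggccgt
Txn1 (chr4:57956362-57956661, minus strand): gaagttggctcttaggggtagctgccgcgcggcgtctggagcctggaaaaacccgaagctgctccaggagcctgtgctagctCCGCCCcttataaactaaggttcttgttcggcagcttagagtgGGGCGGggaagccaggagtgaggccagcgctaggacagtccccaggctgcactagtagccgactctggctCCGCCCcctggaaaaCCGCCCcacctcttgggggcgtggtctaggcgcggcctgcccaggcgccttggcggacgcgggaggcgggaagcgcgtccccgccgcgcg

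GC boxes were found in all 8 member promoters, against 46.2% of all promoters and 78.1% of the 5069 promoters with a summit in CD93-negative replicate 1. CCAAT was found in 4 of the 8 (Foxo1, Sod1, Sod2 and Cat), against 38.2% of all promoters and 46% of those with a summit. The antioxidant response element core was found in 2 of the 8, against 13% of all promoters and 17% of those with a summit. In Nfe2l2 it spanned bases 11 to 19, and the summit of CD93-negative replicate 1 lay at base 270, on the other side of 3 GC boxes. In Sod1 it spanned bases 195 to 203 on the opposite strand, and the summit of CD93-negative replicate 1, at base 196, lay inside it. The AP-1 element was found in 4.66% and the FoxO element in 3% of all promoters. A match of letters is a description of the sequence, not a measured binding site. The median GC content was 65.5% in the 8 members, 64.3% in promoters with a summit in CD93-negative replicate 1 and 56.3% in all promoters. The 8 themselves ranged widely, with 75% GC and 35 CpG dinucleotides in Foxo3 and 53.3% and 13 in Keap1. Cat had the fewest CpG dinucleotides, 11 at 62% GC, and held a summit of CD93-negative replicate 1 at base 248. Keap1 was the promoter without a summit in its 300 bases in any list. The Keap1 summits of CD93-negative replicates 1 and 2 lay beyond those bases, 258 and 74 bp inside the gene.

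**Figure D2:**
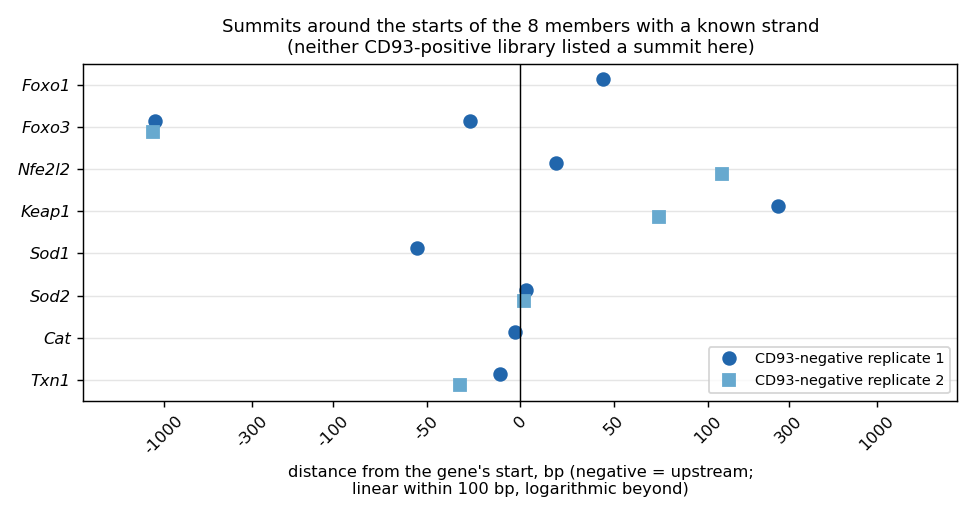
Distance of each summit from the gene's start in bp (horizontal axis, negative is upstream, linear within 100 bp and logarithmic beyond) for the 8 members with a known strand (vertical axis), in CD93-negative replicates 1 and 2. Apart from the Foxo3 pair 1130 and 1167 bp upstream, the summits sit between 55 bp upstream and 258 bp downstream of a start.

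Among the regulators, Nfe2l2 had the strongest sites. Nfe2l2 (gene ID 18024, chromosome 2, 75675513 to 75704663, minus strand) had no summit in CD93-positive replicates 1 and 2, a summit of score 40.6 in CD93-negative replicate 1 and one of score 15.3 in CD93-negative replicate 2. These ranked 1521 of 7989 and 494 of 2755, so the gene stood in the top 19% and top 17.9% of the lists. The positions were 75704644 and 75704542, 19 and 121 bp inside the gene from its start and 102 bp apart. Its relative rank was thus close to the same in both CD93-negative lists. The nearest summit of CD93-positive replicate 2 was 943 kb from the gene.

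Keap1 (gene ID 50868, chromosome 9, 21229730 to 21239332, minus strand), the adaptor that brings NRF2 to the CUL3 ubiquitin ligase, had weaker sites. It had no summit in CD93-positive replicates 1 and 2, and scores of 16.6 (rank 4831) and 4.46 (rank 2614) in CD93-negative replicates 1 and 2. The summits lay at 21239074 and 21239258, 258 and 74 bp inside the gene. In both CD93-negative lists, of 7989 and 2755 summits, Keap1 stood below the median. With a score of at least 5 required, it had no summit in CD93-negative replicate 2.

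Foxo3 (gene ID 56484, chromosome 10, 42181845 to 42276695, minus strand), the FoxO gene with the best known role in HSC maintenance in mice, was the single regulator with a pair of summits in 1 list. CD93-positive replicates 1 and 2 listed none. CD93-negative replicate 1 listed 42277825, 1130 bp upstream of the start (score 32.8, rank 2258), and 42276722, 27 bp upstream (score 13.5, rank 5575). CD93-negative replicate 2 listed 42277862, 1167 bp upstream (score 9.19, rank 1516), and none at the start itself. The higher of the pair was therefore away from the annotated start and was the one that both lists held. No end of another annotated gene lay within 1 kb of it.

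Foxo1 (gene ID 56458, chromosome 3, 52268337 to 52350109, plus strand) had the lowest score of the members in CD93-negative replicate 1. CD93-positive replicates 1 and 2 and CD93-negative replicate 2 listed no summit, and CD93-negative replicate 1 listed 52268381, 44 bp inside the gene, with a score of 9.92 and rank 6545. Foxo4 (gene ID 54601, chromosome X, 101254261 to 101260873) had no summit within 10 kb in any library. The nearest to it were 27.5 and 35.5 Mb away in CD93-positive replicates 1 and 2, 13.3 kb away in CD93-negative replicate 1 and 71.8 kb away in CD93-negative replicate 2. Of the 966 genes of chromosome X, 0.207% had a summit in their window in CD93-positive replicate 1, against 0.0339% of autosomal genes, which is 2 and 7 genes. In the other libraries the share was lower on chromosome X, where 0.828% had one in CD93-positive replicate 2, 21.8% in CD93-negative replicate 1 and 4.45% in CD93-negative replicate 2, against 4.85%, 45% and 19.4% of autosomal genes. The part of the chromosome in the missing Foxo4 site was not tested.

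Sod2 had the highest score of all members in CD93-negative replicate 1 and a low one in replicate 2. Sod2 (gene ID 20656, chromosome 17, 13007839 to 13018119, plus strand) encodes the manganese superoxide dismutase of mitochondria and is a known FoxO target. It had no summit in CD93-positive replicates 1 and 2, a score of 61.3 (rank 512, the top 6.41%) in CD93-negative replicate 1 and a score of 7.05 (rank 2090, the top 75.9%) in CD93-negative replicate 2. The positions, 13007842 and 13007841, were 1 bp apart and 3 and 2 bp from the start, so the lists placed the site alike and ranked it very differently. Of the 2560 sites that both CD93-negative lists held, 3.71% had summits at most 1 bp apart.

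Sod1 (gene ID 20655, chromosome 16, 90220762 to 90226333, plus strand), the cytosolic copper-zinc superoxide dismutase, was listed in CD93-negative replicate 1 alone. The summit at 90220707, 55 bp upstream of the start, scored 45.8 and ranked 1191, in the top 14.9% of the list. CD93-positive replicate 2 had its nearest summit 76.6 kb from the gene and CD93-negative replicate 2 had its nearest 58.2 kb away. Sod1 was thus the strongest member site in CD93-negative replicate 1 that the other CD93-negative library did not list. Of the summits of CD93-negative replicate 1 in the same score decile, 61.7% (95% interval 58.2 to 65.1) were listed in CD93-negative replicate 2.

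Txn1 (gene ID 22166, chromosome 4, 57943373 to 57956411, minus strand) encodes cytosolic thioredoxin. CD93-positive replicates 1 and 2 listed no summit, and CD93-negative replicates 1 and 2 listed 57956422 and 57956443, 11 and 32 bp upstream of the start, with scores of 39.7 (rank 1617) and 11.2 (rank 1098). Both were above the medians of their lists, 20.6 and 9.81. An end of the lncRNA gene Gm35344 lay 21 and 0 bp from these summits, so they cannot be assigned to 1 of the 2 genes.

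Cat (gene ID 12359, chromosome 2, 103453904 to 103485153, minus strand), the peroxisomal catalase gene, was listed in CD93-negative replicate 1 alone. Its summit at 103485156, 3 bp upstream of the start, scored 16.2 and ranked 4933, below the median of the list. The nearest summit was 380 kb from the gene in CD93-positive replicate 2 and 121 kb away in CD93-negative replicate 2. Of the summits in its score decile, 0.628% were listed in CD93-positive replicate 2 and 16.3% in CD93-negative replicate 2.

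Hmox1 (gene ID 15368, chromosome 8, 75093618 to 75100593), which encodes the inducible heme oxygenase and is a textbook NRF2 target repressed by BACH1, was the single antioxidant member with no summit within 1 kb of a gene end in any library. No library but CD93-negative replicate 1 listed a summit in its window. The one at 75109482 (score 32.2, rank 2333) lay 8889 bp beyond the upper end of Hmox1 and 14 bp inside the start of Mcm5, a subunit of the replicative DNA helicase. The other, at 75083974 (score 25.8, rank 3144), lay 9644 bp below the lower end of Hmox1 and 13853 bp beyond the 3′ end of Tom1, the next gene on that side. Within 5 kb of Hmox1 no library listed a summit, so its place among the genes with a summit rests on the 10 kb flank.

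Regulators and antioxidant genes were both listed in CD93-negative HSCs and in neither CD93-positive library. In CD93-positive replicates 1 and 2, 0 of 5 genes of either kind had a summit in their window, as against 0.0411% and 4.62% of all protein-coding genes. In CD93-negative replicate 1, 4 of 5 regulators and 5 of 5 antioxidant genes did (43.5% of all genes), and in CD93-negative replicate 2, 3 of 5 and 2 of 5 had one (18.5%). Hmox1 counted in replicate 1 through its flank alone, and its higher summit, of score 32.2, lay at the start of Mcm5. That score stands for Hmox1 in the median below. Within 1 kb of a gene end, 4 of each kind were listed in replicate 1 (32.2% of all genes) and 2 of each kind in replicate 2 (12.9%). Taking the highest summit of each gene, the median score in CD93-negative replicate 1 was 24.7 over 4 regulators and 39.7 over 5 antioxidant genes, against 24.9 over the 9521 protein-coding genes with a summit. In CD93-negative replicate 2 the medians were 9.19 over 3 regulators and 9.15 over 2 antioxidant genes, against 10.2 over 4059 genes. The antioxidant median thus stood above that of all genes in replicate 1 and below it in replicate 2, and no test was made between so few genes. CD93-negative replicate 1 had 5 summits over 322 kb of regulator windows and 6, of which 2 were those of Hmox1, over 167 kb of antioxidant windows. Per 100 kb that was 1.55 and 3.59, against 0.819 at all protein-coding genes. In CD93-negative replicate 2 the values per 100 kb were 0.932, 1.2 and 0.297. Foxo1 and Foxo3 have long bodies while most member summits lay at gene starts, so these values depend on gene length. They do not show a difference between the 2 kinds of gene.

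Counted within 1 kb of either gene end, the members numbered 0 in CD93-positive replicates 1 and 2, 8 in CD93-negative replicate 1 and 4 in CD93-negative replicate 2. The shares of all protein-coding genes were 0.0183%, 3.22%, 32.2% and 12.9%. Set to the 2755 summits of replicate 2, CD93-negative replicate 1 reached 6 of the 10 genes in their wider windows (Foxo3, Nfe2l2, Sod1, Sod2, Hmox1 and Txn1), against 18.4% of all genes. The list lengths being equal, Keap1 was then in replicate 2 alone, and Sod1 and Hmox1 in replicate 1 alone. Foxo3, Nfe2l2, Keap1, Sod2 and Txn1, 5 of 10, had a summit in both CD93-negative libraries and in no CD93-positive one, as did 14.2% of all protein-coding genes.

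The member summits were next placed on the score scale of CD93-negative replicate 1, to show how often sites of like score appeared in the other lists. Of its 7989 summits, 8.65% lay within 250 bp of a summit of CD93-positive replicate 2 and 32% within 250 bp of one of CD93-negative replicate 2. Of its 11 member summits, 0 were listed in CD93-positive replicate 2 and 5 in CD93-negative replicate 2. Sod2 lay in the highest decile, where 48.8% of summits (95% interval 45.3 to 52.3) were listed in CD93-positive replicate 2. Nfe2l2 and Sod1 lay in the next, where 16.8% (14.3 to 19.6) were. Txn1 and the higher summits of Foxo3 and Hmox1 followed in decile 3 with 9.99%, and the other 5 member summits lay in deciles where between 0.126% and 3.76% were listed. On the scale of CD93-negative replicate 2 the order was another. There Nfe2l2 lay in decile 2, where 39.2% of summits (33.4 to 45.2) were listed in CD93-positive replicate 2, and Sod2 in decile 8, where 10.6% (7.24 to 14.7) were. Txn1, Foxo3 and Keap1 lay in deciles with 19.7%, 12.1% and 2.9%. Which member lay in the decile most often listed in CD93-positive replicate 2 thus depended on the list used as the scale. These are shares of all summits in a decile, and no member summit of either list was itself listed there.

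**Figure D3:**
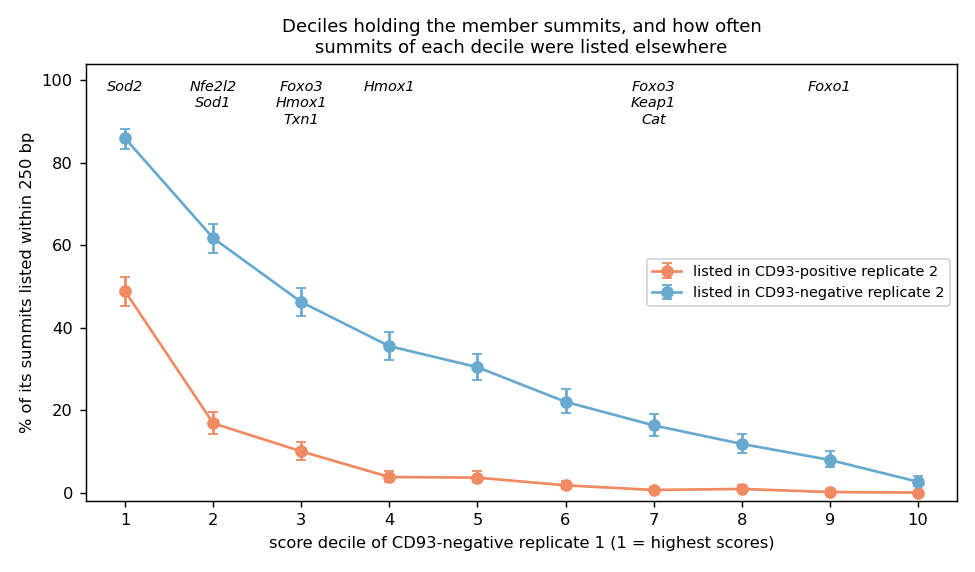
Share of the summits of CD93-negative replicate 1 that lay within 250 bp of a summit of CD93-positive replicate 2 or of CD93-negative replicate 2 (vertical axis, percent), by score decile (horizontal axis, 1 is the highest). Bars are exact Clopper-Pearson 95% intervals, and the names give the deciles of the member summits, from Sod2 in decile 1 (48.8% and 85.9% listed) to Foxo1 in decile 9 (0.126% and 7.91%).

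Other genes of the same pathways were counted in the same windows. Of 55 such genes in 5 lists, 0 had a summit in the first CD93-positive replicate and 8 (14.5%) in the second, against 49 (89.1%) in CD93-negative replicate 1 and 28 (50.9%) in CD93-negative replicate 2. The 8 in CD93-positive replicate 2 included Akt1, Ywhaz, Gsk3b, Btg1, Klf2, Gadd45a and Glrx5, and all 8 were also in both CD93-negative lists. The gap between these 8 of 55 and the 0 of 10 members was not tested. Within 1 kb of a gene end, 0 and 6 of the 55 had a summit in the CD93-positive replicates, against 37 and 21 in the CD93-negative replicates. The shares of all genes there were 0.0183% and 3.22%, against 32.2% and 12.9%. Summits in the flanks of pathway genes were not checked for neighbouring genes. Unless gene ends are named, counts below are of the wider windows. They are to be read beside the shares of all genes, 4.62% in CD93-positive replicate 2, against 43.5% and 18.5% in the CD93-negative lists.

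Genes that control FoxO, listed together with the FoxO gene Foxo6, had summits in CD93-positive replicate 2 in 3 of 11 cases. In CD93-negative replicates 1 and 2 they had them in 11 and 6. Within 1 kb of a gene end these counts were 1, 7 and 2. The summits of Akt1, the kinase that inactivates FoxO, and of Ywhaz, a 14-3-3 protein that binds phosphorylated FoxO, lay 9027 and 9276 bp from the nearer gene end in CD93-positive replicate 2, the first in the flank and the second inside the gene. By rank, Sirt1, a deacetylase of FoxO proteins, stood in the top 4.63% and 41.5% of CD93-negative replicates 1 and 2. Pdpk1, the kinase upstream of AKT, stood in the top 6.21% of CD93-negative replicate 1 and was not in replicate 2. Its highest summit lay inside the gene, 13948 bp from the nearer end.

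FoxO targets had summits in CD93-positive replicate 2 in 3 of 10 cases, and in both CD93-negative libraries in 9 of 10. The counts within 1 kb of a gene end were the same. Btg1, an antiproliferative gene, stood in the top 28.3% of CD93-positive replicate 2, and in the top 1.92% and 11% of CD93-negative replicates 1 and 2, each time within 58 bp of a gene end. Klf2, a quiescence factor of lymphocytes, stood in the top 63.9% of CD93-positive replicate 2, and in the top 1.95% and 29.1% of the CD93-negative replicates. Gadd45a, a stress and DNA damage response gene, stood in the top 21.1% of CD93-positive replicate 2, and in the top 2.77% and 29.5% of the CD93-negative replicates. Sesn3, a sestrin, was in the CD93-negative lists alone, in their top 18.9% and 27.8%. These ranks are from lists of 711, 7989 and 2755 summits and are given for each list, not as a change.

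Partners of NRF2 and genes that control it had summits in CD93-positive replicate 2 in 1 of 9 cases. In CD93-negative replicates 1 and 2 they had them in 9 and 5. At gene ends, within 1 kb, these counts were 1, 7 and 5. The gene in CD93-positive replicate 2 was Gsk3b, a kinase that marks NRF2 for degradation independently of KEAP1. It stood in the top 17.3% of that list, and in the top 8.19% and 6.32% of CD93-negative replicates 1 and 2. Bach1, the repressor that competes with NRF2, stood in the top 7.01% and 17.6% of the CD93-negative lists. Rbx1, the RING subunit of the CUL3 ligase, stood in their top 7.41% and 35.1%, and Mafk, a small MAF partner, stood in the top 5.21% of CD93-negative replicate 1 alone.

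NRF2 targets had summits in 0 of 10 cases in CD93-positive replicate 2, against 9 and 3 in CD93-negative replicates 1 and 2. Within 1 kb of a gene end these counts were 0, 6 and 1. The subunits of glutamate-cysteine ligase, the first enzyme of glutathione synthesis, were in CD93-negative replicate 1 alone, Gclm in its top 14.2% and Gclc in its top 36.3%. Fth1, the ferritin heavy chain, stood in the top 6.12% and 25.8% of CD93-negative replicates 1 and 2. Blvrb, a biliverdin reductase, stood in their top 5.65% and 10.4%, by highest summits at different positions. Replicate 1 listed 3 summits at Blvrb, and its others were not set against the site of replicate 2. The site in replicate 2 lay 7442 bp outside Blvrb. Antioxidant enzymes had summits in 1 of 15 cases in CD93-positive replicate 2, against 11 and 5 in CD93-negative replicates 1 and 2. At gene ends, within 1 kb, these counts were 1, 8 and 4. The gene in CD93-positive replicate 2 was Glrx5, a mitochondrial glutaredoxin of iron-sulfur cluster assembly. It stood in the top 29.1% of that list, and in the top 0.764% and 10.5% of CD93-negative replicates 1 and 2. Gpx4, the glutathione peroxidase that reduces lipid peroxides, stood in the top 2.87% and 79.9% of the CD93-negative lists, again by highest summits at different positions. Replicate 1 listed 2 summits at Gpx4, and its other was not set against the site of replicate 2. The site in replicate 2 lay 7333 bp outside Gpx4. Gpx1 stood in the top 14.4% and 45.7% of the same lists. Prdx2, a peroxiredoxin, stood in the top 29.1% of CD93-negative replicate 1 alone, by a summit 3912 bp outside the gene.

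**Figure D4:**
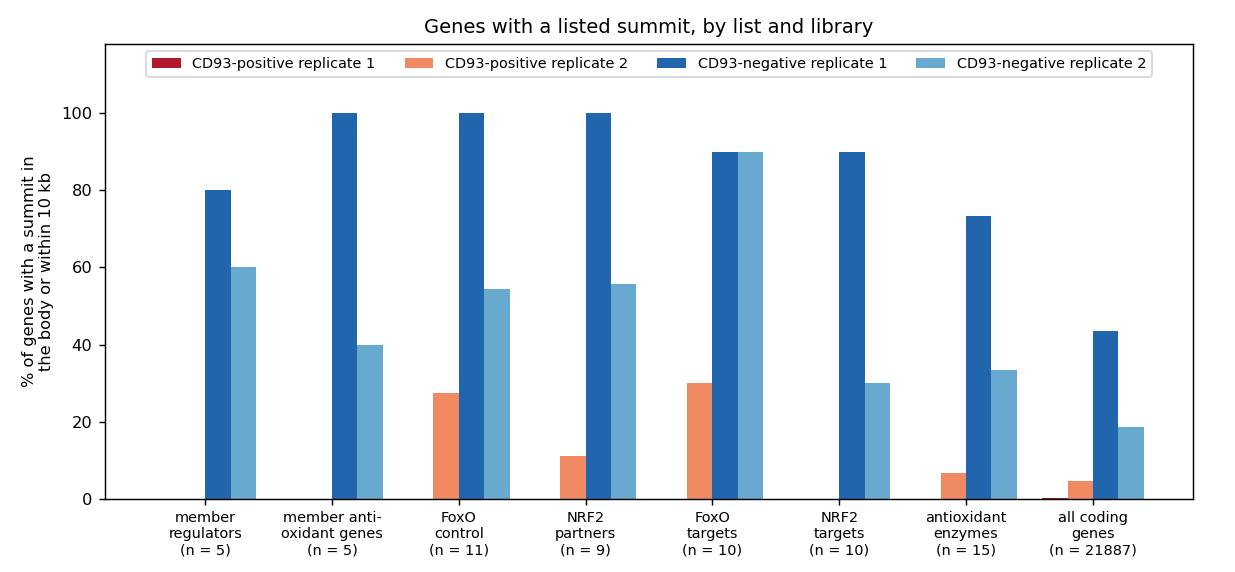
Share of genes with a summit in the body or within 10 kb of it (vertical axis, percent), for the member regulators, the member antioxidant genes, 5 lists of other pathway genes and all protein-coding genes (horizontal axis), by library. FoxO targets stand at 30% in CD93-positive replicate 2 and 90% in both CD93-negative libraries. The FoxO control list stands at 27.3%, 100% and 54.5% in the same libraries, while all coding genes stand at 4.62%, 43.5% and 18.5%.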

How the data were processed

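Positions come from the authors' deposited lists of 1-bp ATAC-seq summits, 1 per library and not pooled. Reads were aligned with Bowtie2 and peaks called with MACS2 on mm10, per the submitters' processing notes. Versions, read filters, the calling threshold and any Tn5 shift are, for every library, not given in the sources used here. Scores in the deposited lists were read as −log10 of p or q, without a statement which. Intervals cover counting error only. No reads or coverage were analysed here.

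Replicates follow the sample titles. The summit names carry other numbers (2 and 3 for CD93-positive replicates 1 and 2, 1 and 3 for CD93-negative replicates 1 and 2). The numbers were therefore not taken to pair libraries, except in the replicate block given as an alternative.

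Genes came from RefSeq (GRCm38.p6). All 10 members, 55 pathway genes and 28 markers matched a symbol. Windows were the gene body plus 10 kb. Summits within 250 bp were 1 site. Groups were compared by two-sided exact permutation over libraries. All members were described. Pathway genes were named if in a CD93-positive list or among the 4 highest of their list in CD93-negative replicate 1. Some genes so named are not reported here. Members and lists were chosen with earlier results of these data known. The counting was tested on simulated data. Python 3.11.15, numpy 2.4.6, pandas 2.3.3, scipy 1.17.1 and matplotlib 3.10.9 were used. Alternatives were other windows, score minimums, list lengths, merging, a replicate block and leaving out libraries.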

Additional observations from a re-analysis of the deposited data

How the results depend on the processing

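Differences are CD93-positive minus CD93-negative means. Of the 38 alternatives, 30 stayed within 1.5 times the value reported. Some of the 30 could not move. The replicate block leaves the means as they are, and leaving out a CD93-positive library only averages counts of 0. No alternative turned a direction, but none could, because the CD93-positive counts were 0 under every setting. The alternatives for the sharing distance are counts without a direction. The count of member genes with a summit, a difference of -7, was -3.5 with the gene body alone and -1 at equal list lengths. The count of summits in member windows, a difference of -8, was -3.5 with the gene body alone, -13.5 with 50 kb flanks and -1 at equal list lengths. The count of members with a gene-end summit, a difference of -6, was -1 at equal list lengths, where fewer summits were used. There the CD93-negative lists were cut to 711 summits, and CD93-positive replicate 1 kept its 21. Leaving out 1 library at a time gave -9 to -5, -11 to -5 and -8 to -4 for the 3 counts, and the summit count moved by over 1.5 times without CD93-negative replicate 1 (-5). Of 11 member sites 5 were shared between lists, and 3 of 13 with 100 bp as the sharing distance. With the replicate block, which paired libraries by title number, the gene difference stayed -7 (exact permutation p = 0.5, the smallest such pairing allows). The labels do not state that these libraries are pairs. With CD93-negative replicate 1 at 2755 summits, an alternative chosen after seeing the data, it was -5.5. Unknown depth and lists of 21 and 711 summits limit every statement on CD93-positive HSCs.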
